A study of Homo sapiens with 4 samples.

Results

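Transcripts of 10 genes that report and restrain ERK signalling were counted by RNA sequencing of polyadenylated RNA from A375 human melanoma cells, with and without p53. The genes were DUSP4, DUSP5, DUSP6, SPRY1, SPRY2, SPRY4, SPRED1, SPRED2, ETV4 and ETV5, chosen by name, and all 10 were found among the 26484 gene symbols of the deposited table. There were 2 libraries of the parental A375 line, with wild-type p53, and 2 of an A375 derivative made p53-null by CRISPR-Cas9 editing, all grown in DMEM. The knockout libraries are numbered 2 and 8, as in the table. The labels do not say whether these numbers stand for clones or cultures, so every p-value here reflects library-to-library spread, which may be technical. An edited control with intact p53 was not part of the design, and loss of p53 cannot be told apart from editing or from the choice of edited cells.

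A375 cells carry an activated BRAF kinase, which drives MEK and ERK without a signal from growth factor receptors. Active ERK induces genes that damp the same pathway. DUSP4, DUSP5 and DUSP6 encode phosphatases that remove the activating phosphates from ERK, DUSP6 in the cytoplasm and DUSP4 and DUSP5 in the nucleus. Sprouty proteins (SPRY1, SPRY2 and SPRY4) interfere with signalling between receptors and RAF, and SPRED1 and SPRED2 bring the RAS inactivator neurofibromin to the membrane. ETV4 and ETV5 are ETS-family transcription factors of the PEA3 group. When ERK is inactive, the repressor capicua keeps ETV4, ETV5, DUSP6 and other targets low.

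Library totals ranged from 29230554 to 36331894 reads. The melanoma markers SOX10 (25662 to 30033 normalized counts) and S100B were present in all 4 libraries, whereas the pigmentation genes MLANA and TYR were at 0 reads throughout. The pigmentation gene PMEL had 28.5 and 28.1 normalized counts in parental cells and 55.8 and 36.1 in knockout libraries 2 and 8. DCT, another, had 2 and 1 reads against 1 and 13. S100B stood at 2138 and 2037 in parental cells and at 1728 and 1428 in knockout libraries 2 and 8. MITF, the melanocyte master regulator, fell by DESeq2, from 1645 and 1562 to 849 and 1050 (adjusted p = 0.00272, and 1.00 without either parental library). Summed over 10 melanoma markers the level was 42011 and 40713 against 41189 and 36178. Most of this level was SOX10, at 30033 and 29587 against 28125 and 25662. AXL, which is also in the sum, had 7867 and 7127 against 10108 and 7778. Summed over 8 fibroblast markers the parental level was 1231 and 1243, against 1634 and 1358 in knockout libraries 2 and 8. Most of this level was PDGFRB (829 and 847 against 1166 and 764), which was below both parental values in knockout library 8. Of the 5 tested fibroblast markers, 2 (FAP and DCN) lay above both parental libraries in both knockout libraries, 0 lay below and 3 overlapped. FAP had 234 and 228 against 329 and 342. LUM, which overlapped, had 92.1 and 101 against 31.6 and 165. COL3A1 had no more than 1 read in each library. Summed over 7 epithelial markers the level was 7742 and 7575 against 7088 and 6804, with CDH1 at 0. Most of this was KRT18, at 6548 and 6494 against 6126 and 5569. Over 7 blood markers the sum was 97.6 and 125 against 126 and 273, with HBA1 and HBB at 0. Most of this was LYZ, at 80.0 and 113 against 114 and 263. The part of these differences in the results was not tested.

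Among the 10 genes, Sprouty was the only family with every chosen gene below both parental libraries in both knockout libraries. Of all genes tested, 23.7% lay so. The Sprouty gene SPRY3, not among the 10, overlapped (101 and 86.0 in parental cells, 145 and 88.9 in knockout libraries 2 and 8). SPRY1, SPRY2 and SPRY4 have 6 RefSeq windows upstream of a transcription start on GRCh38.p14. Of these, 1 for SPRY1 and 1 for SPRY2 are shown. The SPRY4 window overlaps an annotated exon and is not printed. Of the 3 SPRY2 windows, the one with an ETS core is printed. Capitals mark the ETS core CCGGAA, the motif that ETV4 and ETV5 share with other ETS factors. The SPRY1 window is chr4:123396545-123396794, plus strand, and the SPRY2 window is chr13:80341127-80341376, minus strand. Each covers the 250 bases before a start and lies outside the annotated exons of its gene in GENCODE 29.
SPRY1: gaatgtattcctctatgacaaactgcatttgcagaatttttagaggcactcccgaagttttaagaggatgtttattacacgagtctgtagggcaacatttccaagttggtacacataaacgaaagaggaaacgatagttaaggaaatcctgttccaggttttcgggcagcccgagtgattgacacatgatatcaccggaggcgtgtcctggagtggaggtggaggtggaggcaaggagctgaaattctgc
SPRY2: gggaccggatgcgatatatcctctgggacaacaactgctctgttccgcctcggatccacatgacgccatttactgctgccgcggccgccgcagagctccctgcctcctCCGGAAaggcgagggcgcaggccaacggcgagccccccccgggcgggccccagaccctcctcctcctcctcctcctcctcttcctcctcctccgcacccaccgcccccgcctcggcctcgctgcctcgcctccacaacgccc
This SPRY2 window held 1 ETS core, and the other 2 SPRY2 windows, this SPRY1 window and the SPRY4 window held 0. On either strand, 14.5% of the 35116 RefSeq windows of this length held at least 1. RefSeq windows were found for 6 of the 10 genes: SPRY1, SPRY2, SPRY4, SPRED1, SPRED2 and DUSP6. Of their 10 windows, 2 held an ETS core, the other being a second SPRY1 window, which overlaps an annotated exon. The p53 half-site was found in 0 of their windows, against 5.57% of all windows, and the AP-1 motif TGANTCA in 0, against 6.57%. The octamer bound by capicua, searched on both strands as TGAATGAA, TGAATGGA, TCAATGAA or TCAATGGA, was found in the DUSP6 window alone among these genes and in 3.18% of all windows. The DUSP6 window overlaps an annotated exon of its gene. The octamer lies within chr12:89352507-89352536, minus strand, shown in capitals with its flanks (TCAATGGA on the other strand).
DUSP6: cggagaatgtaTCCATTGAgacgctcgctg
A match describes these letters only and is not a measured binding site.

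Values are normalized counts, that is, gene reads divided by a factor for each library, and a fold change is the difference in log2(normalized count + 1), knockout minus parental, with its standard error. The 10 genes rested on 257 to 27757 reads per library, so that counting error was at most 6.24% of a value (SPRY1 in knockout library 2). With 2 libraries against 2, an exact permutation test cannot give a p below 0.333, and differences were tested with limma across all 15431 genes that passed a filter on low counts, which all 10 passed.

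Limma called 0 of the 10 genes at an adjusted p of 0.05, as it called 0% of all genes in either direction, and 1 of the 10, SPRY2, had an unadjusted p under 0.05, against 12.0% of all genes. The edgeR quasi-likelihood test on the reads also called 0 of the 10, with SPRY2 alone at an unadjusted p under 0.05 (12.1% of all genes). DESeq2 called 1, SPRY2, as lower, where it called 1.22% of all genes lower and 1.21% higher, and gave SPRY2 and SPRY4 an unadjusted p under 0.05 (7.88% of all genes). In 4 of the 10 genes (SPRY1, SPRY2, SPRY4 and ETV4) both knockout values lay below both parental values, and in 1 (DUSP6) above. Over all genes tested these shares were 23.7% and 22.8%, or 46.4% in either direction, against 5 of the 10. The median fold change of the 10 genes was -0.05, against -0.0057 over all genes.

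**Figure D1:**
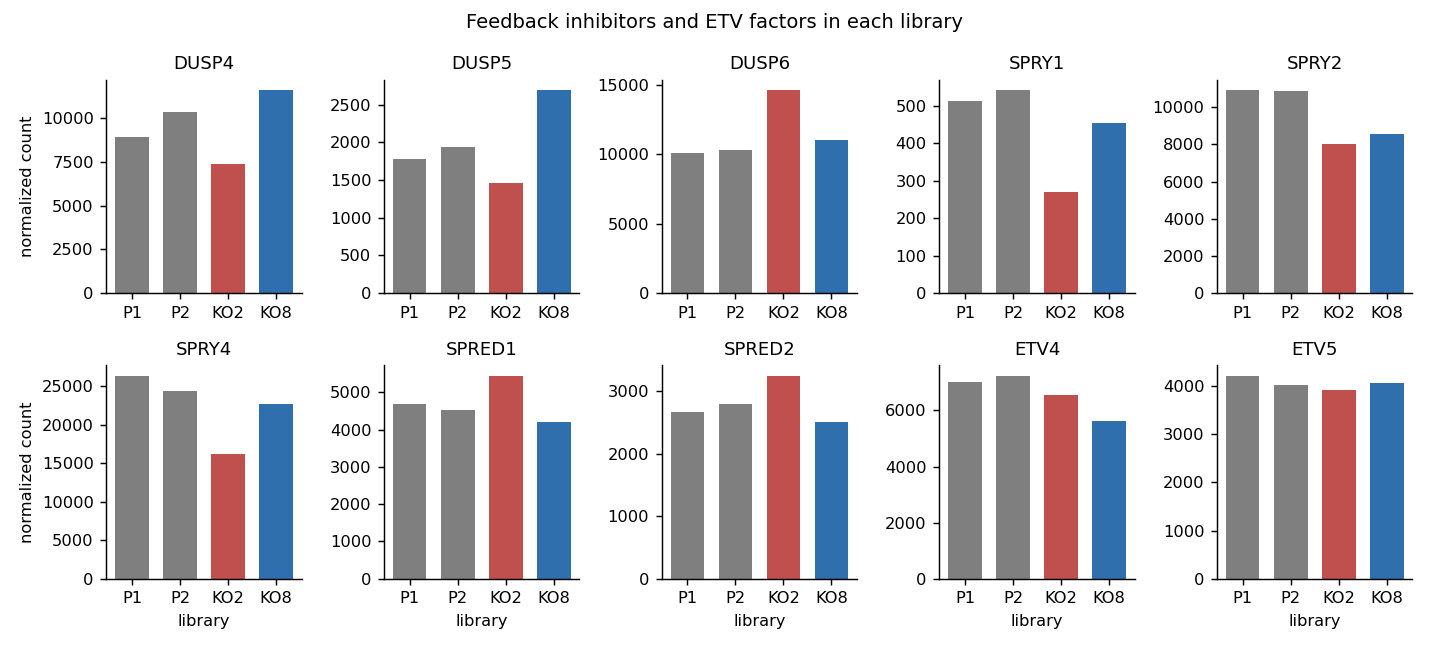
Normalized count (vertical axis, from 0, scaled for each gene) of the 10 genes in parental libraries 1 and 2 (P1, P2, grey) and knockout libraries 2 (KO2, red) and 8 (KO8, blue), with 1 bar per library and no error bar. SPRY1, SPRY2, SPRY4 and ETV4 are below both parental bars in both knockout libraries, and DUSP4 and DUSP5 are below them in KO2 and above them in KO8.

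SPRY2, which restrains RAS-ERK signalling downstream of growth factor receptors, stood at 10926 and 10853 normalized counts in parental cells, then at 8015 and 8575 in knockout libraries 2 and 8. The knockout libraries lay close together, at 73.6% and 78.7% of the parental mean. SPRY2 fell by DESeq2, with a log2 fold change of -0.39 ± 0.12 (adjusted p = 0.0388). By limma the log2 fold change was -0.39 ± 0.08 (unadjusted p = 0.00578, adjusted p = 0.261), and by edgeR -0.39 (adjusted p = 0.264). Without parental library 1 or 2, DESeq2 did not call SPRY2 (adjusted p = 1.00 in both cases), although its log2 fold change was -0.39 and -0.40. The 40 nearest genes on its chromosome with a mean of at least 100 had a median log2 ratio to the parental mean of -0.04 in knockout library 2 and 0.0082 in knockout library 8, while SPRY2 itself stood at -0.44 and -0.34.

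SPRY4, the Sprouty gene with the highest level in these cells, stood at 26366 and 24347 in parental cells, at 16190 in knockout library 2 and at 22617 in knockout library 8. Its groups did not overlap, but knockout library 8 was at 89.2% of the parental mean, against 63.9% in knockout library 2. The limma log2 fold change was -0.40 ± 0.18 (adjusted p = 0.475).

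SPRY1, the least abundant of the 10, stood at 514 and 543 in parental cells, at 270 in knockout library 2 and at 454 in knockout library 8. Knockout library 2 was at 51.2% of the parental mean, the lowest of all 10 genes in either knockout library, and knockout library 8 at 85.9%. The limma log2 fold change of -0.59 ± 0.27 was the largest in size of the 10 and was not called (adjusted p = 0.481). Its 40 neighbours had medians of -0.13 and -0.05 in knockout libraries 2 and 8, in the same direction and smaller.

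SPRED1, mutated in Legius syndrome, stood at 4689 and 4516 in parental cells, at 5449 in knockout library 2 and at 4214 in knockout library 8. For SPRED2 the same series ran 2669, 2798, 3252 and 2510. Both genes were above both parental values in knockout library 2 and below them in knockout library 8. In knockout library 2 they were at 118% and 119% of the parental mean, and in knockout library 8 at 91.6% and 91.8%. The limma log2 fold changes were 0.06 ± 0.14 for both (adjusted p = 0.886 for SPRED1 and 0.877 for SPRED2). The ratio of SPRED1 to SPRED2 counts within a library, which no scaling factor touches, was 1.76 and 1.61 in parental cells and 1.68 in each knockout library.

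DUSP6, the cytoplasmic ERK phosphatase, stood at 10079 and 10290 in parental cells, at 14656 in knockout library 2 and at 11047 in knockout library 8. It was the only gene of the 10 above both parental values in both knockout libraries, which were at 144% and 108% of the parental mean. The limma log2 fold change was 0.32 ± 0.15 (adjusted p = 0.495).

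DUSP4, a nuclear phosphatase, stood at 8916 and 10340 in parental cells, at 7378 in knockout library 2 and at 11633 in knockout library 8. DUSP5, the nuclear phosphatase specific for ERK and described as a p53 target, ran 1783, 1934, 1468 and 2698 over the same libraries. Both genes were below both parental values in knockout library 2 and above them in knockout library 8, the reverse of SPRED1 and SPRED2. The limma log2 fold changes were -0.05 ± 0.24 for DUSP4 (adjusted p = 0.944) and 0.10 ± 0.30 for DUSP5 (adjusted p = 0.911).

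Within a library, the ratio of DUSP6 to DUSP4 counts was 1.13 and 0.995 in parental cells, 0.950 in knockout library 8 and 1.99 in knockout library 2, which stood apart from the other 3. The ratio of DUSP4 to DUSP5 lay between 4.31 (knockout library 8) and 5.35 (parental library 2), with knockout library 2 between these values at 5.03. The pairs in these ratios were chosen after the values were seen.

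ETV4 stood at 7007 and 7243 in parental cells, at 6539 in knockout library 2 and at 5606 in knockout library 8. Its groups did not overlap, and here knockout library 8 was the lower one, at 78.7% of the parental mean against 91.8%. The limma log2 fold change was -0.23 ± 0.10 (adjusted p = 0.465). ETV5 ran 4221, 4033, 3914 and 4056 over the same libraries, so that knockout library 8 lay between the parental values. Its log2 fold change of -0.05 ± 0.08 (limma adjusted p = 0.810) had the smallest standard error of the 10.

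The knockout libraries parted from each other more than the parental libraries did in 9 of the 10 genes, ETV5 being the exception, and in 74.4% of all genes tested. The median size of the log2 difference between knockout libraries was 0.39 over the 10 genes, against 0.23 over all genes tested and 0.16 over the 7195 genes with a mean of at least 1000. Between the parental libraries it was 0.07, 0.09 and 0.06. DUSP5 had the largest difference, 0.88 higher in knockout library 8 on the log2 scale. In size, 10.1% of all genes tested and 2.90% of those with a mean of at least 1000 exceeded it. SPRY1 followed with 0.75 and DUSP4 with 0.66, both higher in knockout library 8. In 4 of the 10 genes, DUSP4, DUSP5, SPRED1 and SPRED2, the knockout libraries lay on either side of both parental libraries, as they did in 25.0% of all genes.

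**Figure D2:**
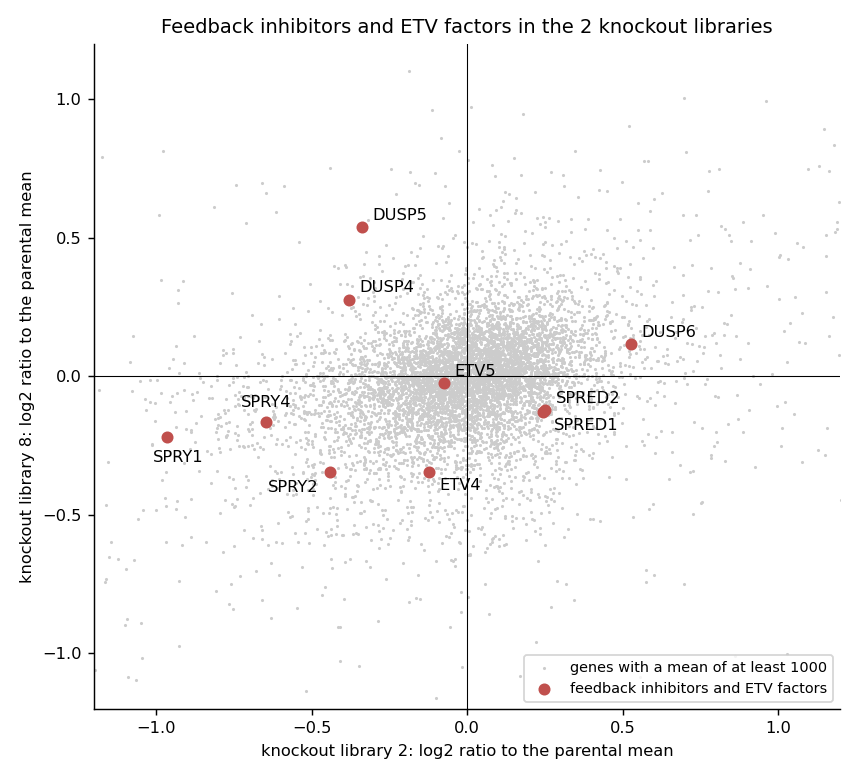
Log2 ratio to the mean of the parental libraries in knockout library 2 (horizontal axis) and knockout library 8 (vertical axis), for the 10 genes (red) and for the 7195 genes with a mean of at least 1000 normalized counts (grey), of which 135 lie outside the axes. The 3 Sprouty genes and ETV4 are at lower left, DUSP4 and DUSP5 at upper left, and SPRED1 and SPRED2 at lower right, almost on top of each other.

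With 1 knockout library left out, the other was compared with the parental pair by limma, on the assumption that it varies as the parental libraries do. Without knockout library 8, 8 of the 10 genes were called, where 32.6% of all genes were. SPRY1, SPRY2, SPRY4, DUSP4 and DUSP5 were lower, and DUSP6, SPRED1 and SPRED2 higher. Without knockout library 2, 4 of the 10 were called, where 18.8% of all genes were: SPRY2 and ETV4 lower, DUSP4 and DUSP5 higher. The 2 comparisons share the parental libraries, and their values stand side by side without a test of their overlap. The log2 fold change of SPRY2 was -0.44 without knockout library 8 (limma adjusted p = 4.25e-04) and -0.34 without knockout library 2 (adjusted p = 0.00384). For DUSP5 it was -0.34 (limma adjusted p = 0.00731) and 0.54 (adjusted p = 2.71e-04), and for DUSP4 -0.38 (adjusted p = 0.00507) and 0.28 (adjusted p = 0.0398). DESeq2 called fewer: without knockout library 8, 5 of the 10 (SPRY1, SPRY2, SPRY4 and DUSP4 lower, DUSP6 higher), where it called 17.1% of all genes, and without knockout library 2, 3 of the 10 (SPRY2 and ETV4 lower, DUSP5 higher), where it called 8.55%. Its adjusted p was 0.0544 for DUSP5, 0.0662 for SPRED1 and 0.112 for SPRED2 without knockout library 8, and 0.0695 for DUSP4 without knockout library 2. These are statements on single knockout libraries, and with all 4 libraries limma called none of these genes.

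Log2 ratios to the parental mean were also taken for the 40 nearest genes on the chromosome of each of the 10. Their medians lay between -0.13 and 0.19 in knockout library 2 and between -0.05 and 0.09 in knockout library 8. In knockout library 2 the neighbours were on the other side of 0 from the gene itself for 6 of the 10. These were DUSP4, DUSP5 and SPRY4 (neighbours 0.12, 0.19 and 0.15, genes -0.38, -0.34 and -0.65), DUSP6 (-0.09 against 0.53), and ETV4 and ETV5 (0.014 and 0.066 against -0.12 and -0.08). In knockout library 8 this held for 6 of the 10 as well. Some of these medians lay close to 0, such as 0.0082 for SPRY2 and 0.0099 for ETV4 in knockout library 8. The share over all genes was not taken, so these counts are a description only.

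Levels of different genes were compared per kilobase of annotated exon. SPRY4 had the highest parental mean, 5095 normalized counts per kb, followed by SPRY2 (3584), ETV4 (2541), DUSP6 (2240), DUSP4 (1327), ETV5 (953), DUSP5 (727), SPRED2 (657), SPRED1 (592) and SPRY1 (175), a 29.1-fold range. The order was the same in both parental libraries, and the 2 parental values of each gene did not overlap with those of its neighbours in the order. In knockout library 2, DUSP6 (3224 per kb) moved from the fourth place to the second, next to SPRY4 (3253), and DUSP5 (574) stood below SPRED2 (782) and SPRED1 (700). In knockout library 8, DUSP5 (1055) stood above ETV5 (937) and DUSP6 (2430) above ETV4 (1999). Per kilobase of coding sequence the range was 47.5-fold, SPRY4, SPRY2 and SPRY1 kept the first, second and last place, and DUSP6 and DUSP4 ranked above ETV4.

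**Figure D3:**
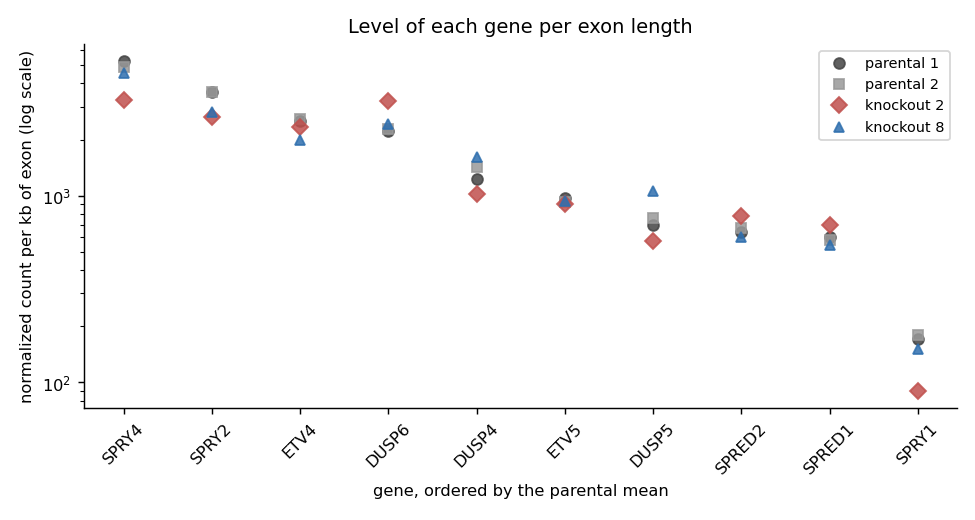
Normalized count per kilobase of annotated exon (vertical log axis) of the 10 genes, ordered by the parental mean, with 1 symbol per library. SPRY4 is highest and SPRY1 lowest in all 4 libraries, and DUSP6 in knockout library 2 comes close to SPRY4.

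The nearest relatives of the 10 genes were DUSP1, DUSP2, DUSP7, DUSP8, DUSP9, DUSP10, DUSP16, SPRY3, SPRED3 and ETV1. None was called by limma, edgeR or DESeq2 (limma unadjusted p under 0.05 in 2 of 10, against 12.0% of all genes tested). Both knockout values were below both parental values in 2 of the 10 and above in 0, against 23.7% and 22.8% of all genes tested. ETV1, the third PEA3 factor, was one, with 5581 and 4928 in parental cells and 3931 and 4383 in knockout libraries 2 and 8 (limma log2 fold change -0.34 ± 0.11, adjusted p = 0.363). DUSP16, which acts mainly on JNK and p38, was the other, with 755 and 665 against 440 and 561 (-0.51 ± 0.17, limma adjusted p = 0.373). SPRY3 had 101 and 86.0 against 145 and 88.9, and SPRED3 1489 and 1424 against 1085 and 1543. DUSP1, the stress-induced phosphatase, had 425 and 460 against 481 and 350. DUSP2, DUSP7, DUSP9 and DUSP10 also overlapped, with limma log2 fold changes between -0.08 and 0.21, and DUSP8 had no more than 15.6 normalized counts in any library.

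Other genes of the RAS-ERK pathway were counted in lists by role. Over all 7 lists, which hold 98 genes of which 96 were tested, limma and edgeR called 0 (20 and 19 at an unadjusted p under 0.05), and DESeq2 called 5 higher and 1 lower. Over all genes tested the shares were 12.0% and 12.1% at an unadjusted p under 0.05, and by DESeq2 1.21% higher and 1.22% lower. With parental library 1 or 2 left out, DESeq2 called fewer of all genes, and of the 98 it called only EGR2 and RPS6KA2. Of 26 other ERK outputs, DESeq2 called 3 higher (EGR2, IER3 and LIF) and 0 lower, and the median limma log2 fold change was 0.20. EGR2 had 195 and 147 in parental cells and 1056 and 1253 in knockout libraries 2 and 8 (DESeq2 adjusted p = 3.87e-28, limma adjusted p = 0.121). IER3 had 9939 and 10400 against 19085 and 13303 (DESeq2 adjusted p = 0.0432, limma adjusted p = 0.340). LIF had 7211 and 6889 against 14686 and 9841 (DESeq2 adjusted p = 0.0139, limma adjusted p = 0.315). In knockout library 2, 21 of these 26 lay above the parental mean, against 3 of the 10 feedback inhibitors and ETV factors and 49.9% of all genes tested. The counts in knockout library 8 were 15 of 26 and 3 of 10, against 49.8% of all genes. The medians of the log2 ratio to the parental mean in knockout library 2 were 0.36 for the other outputs and -0.23 for the 10 genes, and in knockout library 8 they were 0.05 and -0.12. The difference between these 2 lists was not tested.

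Among 12 tested receptor genes DESeq2 called 1, EGFR, as higher, at 601 and 545 in parental cells and 969 and 821 in the knockout pair (adjusted p = 0.0374). The receptors had a median log2 ratio of 0.39 in knockout library 2 and -0.11 in knockout library 8. FGFR1, chosen after its values were seen, had 1985 and 2020 against 4484 and 2215.

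Of 15 genes for RAS proteins and their activators, 0 were called by limma, edgeR or DESeq2 (1 at an unadjusted limma p under 0.05), and the median was -0.02. RASGRP3, the gene of this list with the largest difference without overlap, had only 12.1 and 16.7 against 11.6 and 9.77. NRAS, which encodes a RAS protein, had 3944 and 3844 against 4378 and 4503 (limma adjusted p = 0.421), so that both knockout libraries lay above both parental ones.

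Among 15 kinases of the cascade and its effectors, RPS6KA2, an RSK kinase that ERK activates, fell by DESeq2, from 1611 and 1734 to 714 and 566 (log2 fold change -1.39 ± 0.14 by limma, adjusted p = 0.169; DESeq2 adjusted p = 3.05e-10). MAPK3, which encodes ERK1, had 2400 and 2214 against 2052 and 2160. MAP2K2, which encodes MEK2, had 4021 and 4160 against 1696 and 3350, and its 40 neighbours had a median of -0.62 in knockout library 2. MAPK3 and MAP2K2 were named after their values were seen.

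Of 16 other brakes, DESeq2 called 1 higher, RASAL1, a RAS GTPase-activating protein, from 499 and 411 to 1008 and 789 (adjusted p = 0.00168), and the median limma log2 fold change was 0.11. In the capicua axis, CIC itself had 3927 and 3558 against 3557 and 3760, so that its groups overlapped. Its cofactors ATXN1 and ATXN1L had 2120 and 2024 against 3092 and 1946, and 1911 and 1865 against 2241 and 2309. None of the 3 was called (limma adjusted p = 0.903, 0.702 and 0.329 for CIC, ATXN1 and ATXN1L).

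**Figure D4:**
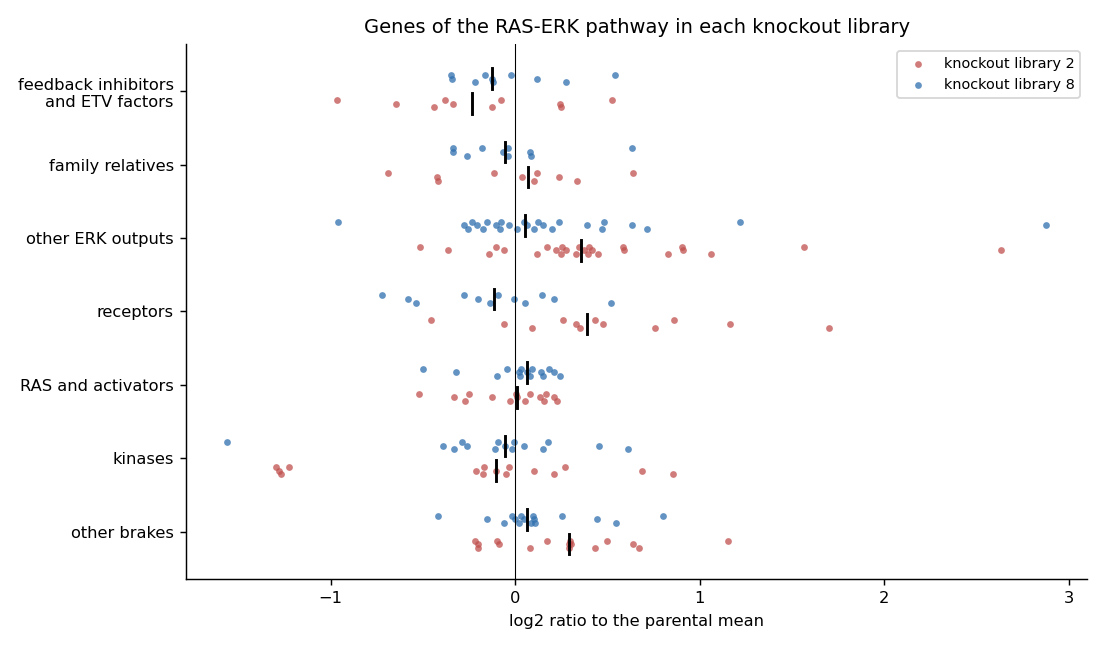
Log2 ratio to the mean of the parental libraries (horizontal axis) for each tested gene of the RAS-ERK pathway, in knockout library 2 (red) and knockout library 8 (blue), with 1 point per gene and the median as a black bar, by list (vertical axis). In knockout library 2 the median of the 10 feedback inhibitors and ETV factors lies at -0.23 and that of the other ERK outputs at 0.36.

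Genes whose pattern over the 4 libraries was most like that of 3 of the 10 were looked for among 12266 genes with a mean of at least 100, by the Euclidean distance between log2 values centred on each gene's mean. For SPRY2 these were IMPA2, RAP1GDS1 and FAM84B (distances 0.0252, 0.0340 and 0.0403). IMPA2, an inositol monophosphatase, had 810 and 823 in parental cells and 597 and 646 in knockout libraries 2 and 8. For SPRY4 they were PARP16, CD44 and MYO6 (0.0212, 0.0215 and 0.0245), and the adhesion receptor CD44 had 22231, 20436, 13837 and 19275. For DUSP6 they were TRAPPC4, TRIB1 and TRAF3 (0.0124, 0.0208 and 0.0292), and the pseudokinase TRIB1 had 2062, 2086, 3005 and 2285. With 4 libraries and 12266 candidates, these matches are a description only.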

How the data were processed

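The submitters' processing notes name the aligner STAR, the counter HTSeq, and Picard, DESeq2 and deepTools, with build hg38. For tool versions, gene annotation and strand setting the sources used here give nothing. Per the labels' protocols, libraries were made from TRIzol-extracted, DNase-treated RNA with poly(A) enrichment and a strand-specific kit. The authors deposited a normalized signal per gene and library. Each value was a whole multiple of 1 step per library (within 0.001; 100% of values), so reads were recovered, and the factors (0.912, 1.14, 0.950 and 1.02 for parental 1 and 2 and knockout 2 and 8) equal median-of-ratios size factors, which assume that most genes do not change. Parental columns carry the labels' replicate numbers; the knockout columns, 2 and 8, were used as members of their group.

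Differences were tested with limma-trend (limma 3.58.1) after a log2 transform with a pseudocount of 1. The 15431 genes that reached 10 normalized counts in 2 or more libraries were tested, with a Benjamini-Hochberg threshold of 0.05. Alternatives were edgeR 4.0.16 quasi-likelihood and DESeq2 1.42.0 on the reads (16330 genes with an adjusted p), TMM factors, other filters, a smaller pseudocount (0.1) and omission of each library; DESeq2 without each library was added after seeing the data. The fits were tested on simulated data. Exon lengths are from GENCODE 29 basic (GRCh38). Named genes were the 10, their relatives, DESeq2-called or largest non-overlapping list members, and the nearest patterns. The genes and lists were chosen with earlier results of these data known. The targeted gene itself is not reported here.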

Additional observations from a re-analysis of the deposited data

How the results depend on the processing

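Limma called 0 of all genes and 0 of the 10 with TMM factors, a pseudocount of 0.1 and at least 1 CPM in 2 libraries, as did edgeR. With no filter on low counts limma called 102 genes, 0 of them among the 10. DESeq2 called 398 genes, 1 of the 10 and 6 genes of the pathway lists. Leaving out 1 library, limma called 0 to 5023 genes, 0 to 8 of the 10 and 0 to 55 genes of the pathway lists, with the highest counts without knockout library 8 and the zeros without a parental library. DESeq2 called 39 and 46 genes without parental library 1 or 2 (0 of the 10, and 2 genes of the pathway lists each), 1270 without knockout library 2 (3 of the 10 and 16 of the lists) and 2611 without knockout library 8 (5 and 41). The number of the 10 whose groups did not overlap was 5 with TMM-scaled values and 5 to 10 with a library left out, where fewer values make overlap rarer. The share over all genes was not taken in these settings, so these counts are a description only. Per coding length, the range from the highest to the lowest of the 10 was 47.5-fold, against 29.1-fold per exon length. Leaving out 1 library, by limma or DESeq2, the log2 fold change ran from -0.39 to 0.28 for DUSP4, from -0.34 to 0.54 for DUSP5, from -0.13 to 0.24 for SPRED1 and from -0.12 to 0.25 for SPRED2, and the sign changed in these 4 alone; for DUSP4 it was -0.38 (limma) without knockout library 8, and by DESeq2 0.093 without parental library 2 and 0.27 without knockout library 2. For SPRY2 it ran from -0.45 to -0.34, with limma adjusted p between 4.25e-04 and 0.999. No paired analysis was possible because the columns of the knockout group are numbered 2 and 8 and cannot be matched to the labelled replicates, so that at most 1 number is shared. The 10 genes had 257 reads or more per library.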
